A study of Mus musculus with 12 samples.

Results

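The comparison described here set BALB/c mice against B6 mice after chronic restraint stress (CRS), using RNA from the medial prefrontal cortex. Its members are the 6 libraries of restrained mice among the 12 libraries of the series, chosen by the strain and treatment given in the sample titles. They came from 3 B6 animals (numbers 12, 13 and 14) and 3 BALB/c animals (numbers 12, 13 and 15), with 1 library per animal number. Of 55678 gene names in the table, 15530 reached 1 TPM in at least 3 of these 6 libraries and were tested. TPM is a transcript abundance corrected for transcript length and scaled to the same total in every library.

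B6 mice were of the inbred strain C57BL/6JmsSlc and BALB/c mice of the inbred strain BALB/cCrSlc, all aged 9 to 10 weeks. Restrained mice spent 6 h per day in polyethylene restrainers in their home cages for 21 days in a row. The other 6 mice, 3 per strain, were controls that were handled but not restrained. Tissue was punched (1.5 mm) from coronal sections after behavioural testing, and stranded poly(A) libraries were read from both ends (150 bp each, about 6 Gb per library). The labels name neither sex, time of day of collection nor sequencing batch. Of the sex-linked genes, Xist reached at most 0.00727 TPM in the restrained libraries. The 4 others tested did not differ between the restrained strains at an adjusted p under 0.05 (limma). The series asks whether the 2 strains respond differently to restraint, and the comparison here gives what separates them once both have been restrained.

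The medial prefrontal cortex is a frontal cortical area that regulates stress hormone release and emotional behaviour. Its excitatory neurons, inhibitory interneurons and glia carry receptors for monoamines, neuropeptides and glucocorticoids, and neuronal activity there induces immediate early genes. The striatum, a neighbouring structure, is built largely of inhibitory medium spiny neurons that express dopamine receptors, enkephalin and substance P, and white matter next to the cortex is rich in myelin. Inbred strains differ by many fixed sequence variants, so that a strain difference can exist before any stress.

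All 6 libraries came from tissue with cortical neuron transcripts: Slc17a7, the vesicular glutamate transporter of cortical excitatory neurons, was at 390.4, 545 and 854 TPM in B6 animals 12, 13 and 14 and at 749, 875 and 821 TPM in BALB/c animals 12, 13 and 15. The libraries also held transcripts of neighbouring tissue, in unequal amounts. Summed over 15 striatal neuron markers, the level was 2718, 2046 and 1161 TPM in the B6 animals against 203, 228 and 259 TPM in the BALB/c animals. Summed over 15 oligodendrocyte and myelin markers it was 5336, 8315 and 2962 TPM in B6 against 630, 1603 and 1434 TPM in BALB/c. BALB/c animal 12 stood apart in that 3.97% of its TPM came from 18S ribosomal RNA, against 0.0479% to 0.0683% in the other 5 restrained animals. Correlations of log2(TPM + 1) across genes were 0.974 to 0.981 between B6 animals, 0.977 to 0.986 between BALB/c animals and 0.924 to 0.95 between strains. In bulk tissue, fewer cells of a type and less RNA per cell cannot be told apart.

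After restraint, 1540 of 15530 genes (9.92%) differed between the strains at an adjusted p under 0.05 (limma on log2(TPM + 1), Benjamini-Hochberg adjustment over all genes tested). Of these, 479 (3.08% of genes tested) were higher and 1061 (6.83%) lower in BALB/c. In each of the 1540 genes the 3 BALB/c animals all lay above or all below the 3 B6 animals, a separation found in 29.5% of all genes tested. The difference was at least 2-fold in 770 called genes, 241 higher and 529 lower. Differences of at least 8-fold were found in 50 higher and 37 lower genes. Of the called genes, 68.9% were lower in BALB/c, with the median of all genes at -0.06 on the log2 scale. Under median-of-ratios scaling the count was 2163, split into 965 higher and 1198 lower (55.4% lower), and 1452 genes kept their call and sign under both scalings. With the mean log2 myelin marker level as a covariate, which itself differs between the strains, 116 genes were called (70 higher and 46 lower), including 2 of 15 striatal and 0 of 15 myelin markers. The 15 myelin markers make up that covariate, so their count carries no information. Because the covariate differs between the strains, the fit cannot separate it from strain. Leaving out 1 library at a time gave 619 to 1373 called genes: 619, 870 and 1373 without B6 animal 12, 13 or 14, and 736, 711 and 973 without BALB/c animal 12, 13 or 15.

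**Figure D1:**
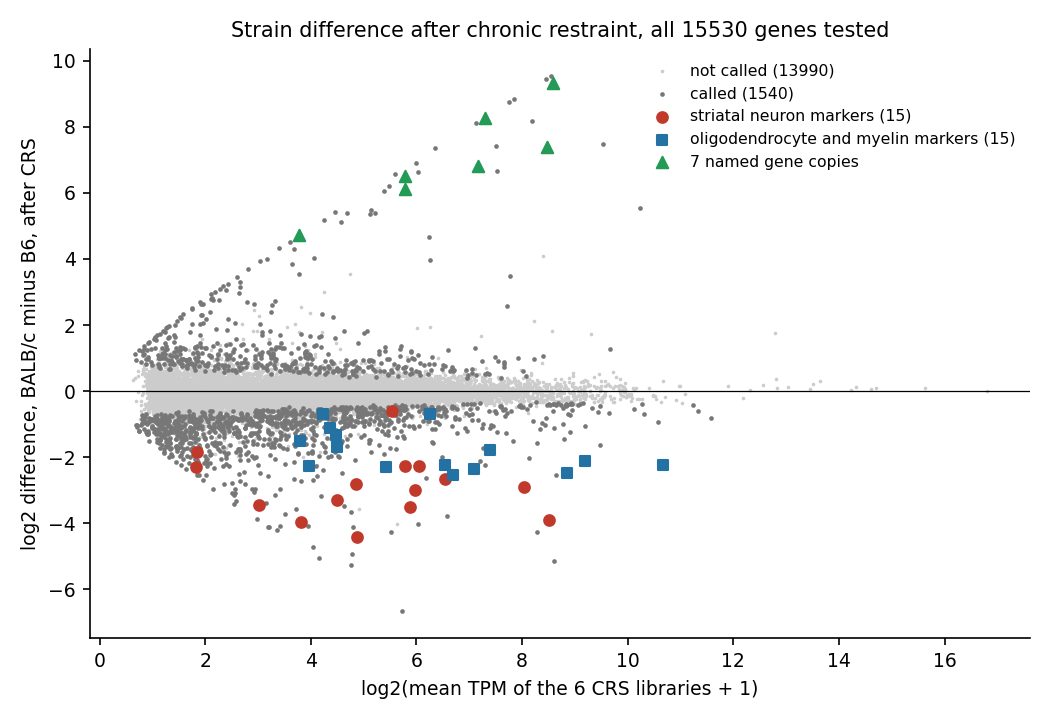
Each point is 1 of the 15530 genes tested, with its level over the 6 CRS libraries on the x axis (log2 of mean TPM + 1) and the BALB/c minus B6 difference on the y axis (log2). The called genes with the highest positive values form a rising edge of transcripts that are near 0 in B6, where 7 gene copies named in the text lie; all 30 striatal and myelin markers shown lie at -0.60 or below.

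Striatal neuron transcripts were lower in restrained BALB/c than in restrained B6 mice: 14 of 15 markers were called lower (93.3%, beside 6.83% of all genes), 0 higher, and the median difference was -2.89 (log2), beside -0.06 over all genes. Penk, the enkephalin precursor, was at 1002, 672 and 368 TPM in the B6 animals and at 36, 34.1 and 56.5 TPM in the BALB/c animals. All 3 BALB/c animals were far below the B6 animal with the least Penk, and the difference was -3.90 (SE 0.33, adjusted p = 1.57e-04, limma). Drd2, the dopamine D2 receptor of enkephalin neurons, was at 57.6, 42.3 and 21 TPM in B6, against 2.07, 3.08 and 3.61 TPM in BALB/c. Adora2a, an adenosine receptor of the same neurons, was at 74.9, 60.3 and 30.2 TPM in B6, against 2.08, 1.55 and 0.84 TPM in BALB/c. These values gave differences of -3.30 for Drd2 and -4.43 for Adora2a (adjusted p = 4.21e-04 and 5.49e-05, limma). Within B6, animal 14 had the least of Penk, Drd2 and Adora2a, and animal 12 the most.

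The neurons of the other output pathway of the striatum express the dopamine D1 receptor and Tac1. Drd1 was at 72.1, 51.8 and 26.9 TPM in B6 against 5.39, 6.61 and 5.45 TPM in BALB/c (log2 difference -2.81, SE 0.30, adjusted p = 7.15e-04, limma). Tac1, the substance P precursor, was as even within groups as it was different between them, at 160.1, 156 and 165 TPM in B6 and at 22, 27.6 and 24.8 TPM in BALB/c. Its difference was -2.65 (SE 0.12, adjusted p = 1.64e-06, limma). Ppp1r1b, which encodes the dopamine-regulated phosphatase inhibitor DARPP-32, and the orphan receptor Gpr6 differed by -2.89 and -3.96. Scn4b (-4.27), a sodium channel subunit, Syndig1l (-3.66) and Lrrc10b (-3.49) were among the 12 largest falls of all genes although they were not on the marker list. The 15th marker, the transcription factor Foxp1, was not called (-0.60, adjusted p = 0.152, limma), and its groups overlapped. Without B6 animal 12, 13 or 14 only 12 of the markers passed the filter, and 10, 11 and 11 were called. Without BALB/c animal 12, 13 or 15 the counts were 13, 13 and 14 of 15.

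In control mice, 0 of the 15 striatal markers were called (median difference -1.38, beside -0.10 over all genes). The B6 controls did not form a tight group there. Their summed striatal level was 3298 TPM in animal 2, 569.6 TPM in animal 3 and 301 TPM in animal 9, and the BALB/c controls (animals 5, 9 and 10) were at 268, 487 and 191 TPM. The wide B6 control values overlapped the BALB/c control values, whereas the restrained groups did not overlap. For 1 of the 15 markers, the difference between the restrained and the control strain contrast had an unadjusted p under 0.05, and 0 were called for it. Whether the striatal level follows strain, restraint or the tissue taken was not tested.

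Myelin transcripts were also lower in restrained BALB/c mice. Of 15 oligodendrocyte and myelin markers, 14 were called lower (93.3%, beside 6.83% of all genes) and 0 higher, with a median difference of -2.13. Mbp, myelin basic protein, was at 2547, 4024 and 1448 TPM in B6 against 284, 749.6 and 658 TPM in BALB/c (-2.24, SE 0.42, adjusted p = 0.0123, limma). BALB/c animal 12 had the least Mbp and B6 animal 13 the most, and the groups did not overlap. Mog and Mal, other myelin proteins, differed by -2.30 and -2.55. The lineage transcription factors Olig2 (-0.68) and Sox10 (-1.33) differed less than the myelin proteins. Ugt8a, an enzyme of myelin lipid synthesis, was the marker not called (-1.13, adjusted p = 0.115, limma). The count of called markers depended on single animals, with 2 called without BALB/c animal 12, 9 without B6 animal 12 and 11 to 15 without each of the others. It was 1 with no filter on low values and 3 with all 12 libraries in the fit. In controls the median was -2.01 and 0 of 15 were called; the summed level was 10269, 6255 and 2727 TPM in B6 and 1443, 3308 and 569.5 TPM in BALB/c, with overlap. Whether the myelin level follows strain or the tissue taken was not tested.

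Beside 9.92% of all genes, 3 of 9 oligodendrocyte precursor markers (33.3%) were called, all lower (Vcan, Lhfpl3 and Enpp6), and the precursor receptor Pdgfra was not (-0.11, adjusted p = 0.805, limma). Without BALB/c animal 12 the precursor count was 1. Of 15 astrocyte markers 2 were called, both lower (13.3%, near the 9.92% of all genes). Gfap, the astrocyte intermediate filament, was at 104, 134 and 100 TPM in B6, against 36.8, 66.7 and 68.6 TPM in BALB/c (-1.0, SE 0.23, adjusted p = 0.03, limma), and Aldoc, a glycolytic aldolase of astrocytes, differed by -0.43. The astrocyte glutamate transporter Slc1a2 differed by -0.01 (adjusted p = 0.977, limma). The astrocyte count was 0 without B6 animal 12 or 13, 1 without BALB/c animal 12 or 13, 0 with no filter on low values and 4 under median-of-ratios scaling. Of 15 microglia markers 4 were called, all lower (26.7%). Fcrls, an Fc receptor-like gene of microglia, was at 13.9, 15.1 and 16.6 TPM in B6, against 2.66, 2.67 and 3.32 TPM in BALB/c (-2.06, SE 0.15, adjusted p = 5.94e-05, limma). The complement genes C1qc (-0.87) and C1qb (-0.86) and the signalling adaptor Tyrobp (-0.57) made up the rest. Other microglia markers, such as P2ry12 (0.08) and Cx3cr1 (-0.05), had adjusted p-values of 0.802 and 0.884 (limma). Ly6a was the 1 gene called among 15 endothelial and pericyte markers (6.67%), and Folr1 (-1.56) among 12 choroid plexus and meningeal markers tested (8.33%), both shares below that of all genes. The choroid plexus count was 0 without B6 animal 12 or 13 or BALB/c animal 12, and 2 without BALB/c animal 15; the endothelial count was 2 without BALB/c animal 13.

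Ccdc153, among the 12 largest falls by rule, was at 40.3, 31.4 and 12.5 TPM in B6, against 0, 0.226 and 1.96 TPM in BALB/c (-4.09, SE 0.48, adjusted p = 0.00119, limma). Foxj1, the transcription factor that switches on motile cilia genes, was at 19.3, 12.8 and 6.83 TPM against 0.798, 1.29 and 2.14 TPM (-2.47). Tmem212 (-3.39) and Dynlrb2 (-2.56) were also lower. Foxj1, Tmem212 and Dynlrb2 were singled out after their values were seen, and no list of related genes was counted. In each of these 4 genes, as in Penk and Drd2, B6 animal 14 had the lowest B6 value.

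**Figure D2:**
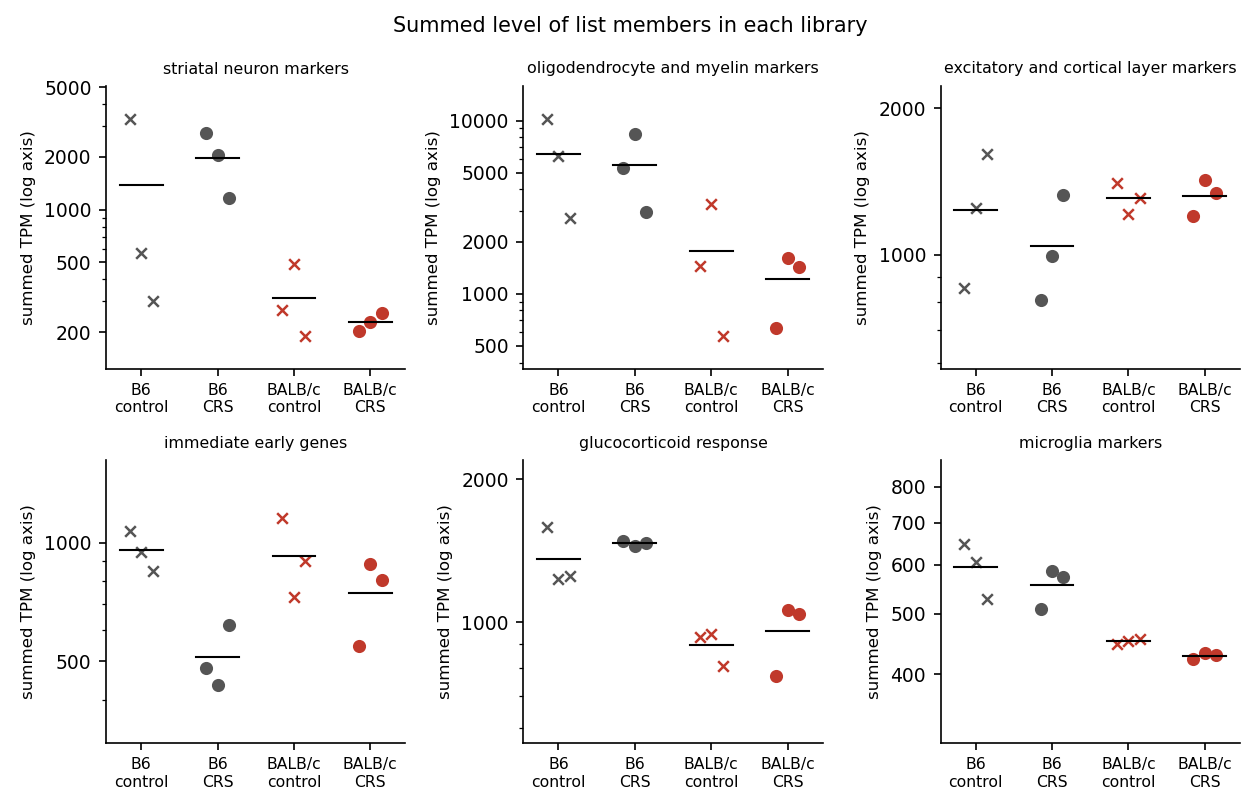
Each panel gives the summed TPM of a gene list in each of the 12 libraries on a log axis, B6 in grey and BALB/c in red, with crosses for controls, circles for CRS and a line at the group mean. The striatal and myelin sums of the 3 restrained B6 animals lie above all 3 restrained BALB/c animals; the immediate early sums of the restrained groups, 435 to 619.9 TPM in B6 and 546 to 885 TPM in BALB/c, overlap.

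Cortical neuron markers moved in both directions. Of 19 excitatory and cortical layer markers tested, BALB/c had 4 higher and 3 lower (36.8% called, beside 9.92% of all genes), and 12 were not called. Cux2, a transcription factor of upper-layer neurons, was at 9.21, 18.8 and 17.5 TPM in B6, against 38.2, 49.6 and 38.8 TPM in BALB/c (1.47, SE 0.25, adjusted p = 0.00753, limma). Neurod6, a transcription factor of cortical excitatory neurons, was higher by 1.02 (adjusted p = 0.00754) and Otof by 0.80 (adjusted p = 0.0215, limma). The 3 lower genes were Syt6 (-1.33), Foxp2 (-1.26), a deep-layer factor also expressed in striatal neurons, and Bcl11b (-0.96), a factor of deep-layer and striatal neurons. The summed level of the 19 markers ran from 805 to 1328 TPM in the B6 animals and from 1203 to 1422 TPM in the BALB/c animals. Whether the cortical marker levels follow the striatal transcripts of the same libraries was not tested. Leaving out BALB/c animal 12 or 13 left 3 or 4 of the list called, and 3 were called with no filter on low values or with all 12 libraries, and 11 under median-of-ratios scaling. Among 19 interneuron markers 3 were called (15.8%): Cck was higher and Tac1 and Slc32a1 were lower. Slc32a1, the vesicular GABA transporter, is used by striatal as well as cortical inhibitory neurons and was at 113, 56.2 and 78.7 TPM in B6 against 27.3, 41 and 46.8 TPM in BALB/c (-1.07, adjusted p = 0.0388, limma). Pvalb, Sst and Vip, which mark the main interneuron classes, were not called (0.61, -0.18 and 0.71; adjusted p = 0.0505, 0.528 and 0.0566, limma). The interneuron count was 1 without BALB/c animal 12 or 13, 5 without BALB/c animal 15 or B6 animal 13, and 6 under median-of-ratios scaling.

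The 6 called genes with the largest gains in level included Cck, Scg5, Lmo4, Mical2 and Mef2c besides the gene copy Eno1b. Cck, which encodes the neuropeptide cholecystokinin, was at 284, 526 and 657 TPM in B6, against 1177, 1257 and 939 TPM in BALB/c (1.27, SE 0.27, adjusted p = 0.021, limma). Scg5, a chaperone of a prohormone-processing enzyme, was at 218, 222 and 207 TPM against 438, 479 and 448 TPM (1.07, SE 0.09, adjusted p = 1.73e-04, limma). Scg5 was called in controls as well (1.18, adjusted p = 0.00461, limma), whereas Cck was not (0.82, adjusted p = 0.299). Lmo4 (0.97) and Mef2c (0.88), transcriptional regulators of cortical neurons, and Mical2 (1.00), an actin-modifying enzyme, were called after restraint only, and the difference between the restrained and control contrasts was called for none of them (adjusted p = 1 for each, limma). The Mef2c call held in 3 of 6 fits that left out a library, and the Cck and Mical2 calls in 4. Whether the Cck, Lmo4, Mical2 and Mef2c levels follow the striatal transcripts of the same libraries was not tested. In B6 control animals 2, 3 and 9, with summed striatal levels of 3298, 569.6 and 301 TPM, Cck was at 356, 699 and 1006 TPM. The 6 largest losses in level included Mbp, Fth1, Apoe, Gapdh and mt-Nd3. Fth1, the ferritin heavy chain, was at 3690, 4917 and 3137 TPM against 2008, 2345 and 2187 TPM (-0.82), and Apoe, the lipid carrier made mainly by astrocytes, differed by -0.43. Gapdh and mt-Nd3 have near-identical copies in the annotation, and their own values are uncertain. The sum of mt-Nd3 and its copy differed by -0.04 (adjusted p = 0.892), and the sum of the 22 genes chained to Gapdh by 0.53 (adjusted p = 0.0113, limma), opposite in sign to Gapdh itself (-0.61).

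Of 25 neuropeptides and stress receptors tested, 7 were called (28% beside 9.92% of all genes), 3 higher and 4 lower. Besides Cck, its receptor Cckbr was higher, at 22.8, 31.5 and 28.6 TPM in B6 and at 51.8, 50.8 and 48.5 TPM in BALB/c (0.85, SE 0.14, adjusted p = 0.00663, limma). Crhr1, the main brain receptor for corticotropin-releasing hormone, was at 4.83, 5.47 and 6.32 TPM in B6, against 12.5, 13.9 and 10.2 TPM in BALB/c. None of the Crhr1 values overlapped, and the difference was 1.01 (SE 0.17, adjusted p = 0.00724, limma). The hormone itself, Crh, was at 2.13 to 2.87 TPM in B6, against 3.56 to 4.11 TPM in BALB/c, and was not called (0.45, adjusted p = 0.143, limma). The 4 lower genes were the opioid and tachykinin genes Penk and Tac1, both also on the striatal marker list, Pdyn, the dynorphin precursor (-1.33), and Oprk1, the dynorphin receptor (-1.73). Whether the levels of Cckbr, Crhr1, Pdyn and Oprk1, which are not on that list, follow the striatal transcripts of the same libraries was not tested. Crhr1 was at 4.8, 8.12 and 13.5 TPM in B6 control animals 2, 3 and 9, whose summed striatal levels fell in that order. Pdyn was at 51.8, 43.1 and 40.6 TPM in B6 against 16.2, 20.6 and 15.2 TPM in BALB/c (adjusted p = 0.00114, limma). The receptors for glucocorticoid and mineralocorticoid, Nr3c1 (-0.24) and Nr3c2 (-0.58), were not called (adjusted p = 0.315 and 0.288, limma). The count rose to 11 of 25 under median-of-ratios scaling.

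Of 27 monoamine receptors, transporters and enzymes tested, 2 were higher and 6 lower (29.6% called, beside 9.92% of all genes). The 2 higher genes encode alpha-1 adrenergic receptors, which noradrenaline activates in the cortex. Adra1d was at 4.22, 8.6 and 7.31 TPM in B6, against 22.6, 28.9 and 17.8 TPM in BALB/c (1.66, SE 0.25, adjusted p = 0.0047, limma). Adra1b was at 4.7, 5.97 and 5.01 TPM in B6, against 12.5, 19.1 and 12.7 TPM in BALB/c (1.32, SE 0.19, adjusted p = 0.00366, limma). The third member, Adra1a, was not called (0.41, adjusted p = 0.2, limma). The lower genes were Drd2 and Drd1, which are also on the striatal marker list, the serotonin receptor Htr1d (-1.44), the monoamine-synthesis enzyme Ddc (-1.37), the monoamine-degrading enzyme Maob (-0.66) and the adrenergic receptor Adra2c (-0.65). Whether the levels of the called genes not on that list, higher or lower, follow the striatal transcripts of the same libraries was not tested. In B6 control animals 2, 3 and 9, whose summed striatal levels fell in that order, Adra1d was at 5.31, 10.3 and 26.5 TPM. Adra1b was at 4.49, 7.82 and 15.9 TPM in these controls. Maob was lower in controls too (-0.71, adjusted p = 0.0134, limma). Without B6 animal 12 the count of called genes was 5 of 25 tested.

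Among 12 GABA-A receptor subunits 2 were called (16.7%, beside 9.92% of all genes). Gabra2 was the higher one, at 21.4, 19.7 and 27.7 TPM in B6 and at 49.4, 63.8 and 65 TPM in BALB/c (1.34, SE 0.17, adjusted p = 0.0016, limma). Gabra2 is known for a variant of C57BL/6J mice that lowers its expression, and it was also called in controls (1.25, adjusted p = 0.014, limma). Gabrg3 was lower (-0.56, adjusted p = 0.0464, limma), a call absent in each of the 6 fits that left out a library; the subunit count was 1 without B6 animal 12 or BALB/c animal 12, 13 or 15. Of 17 ionotropic glutamate receptor subunits 1 was called (5.88%, below the share of all genes), the kainate receptor subunit Grik4 (0.67, adjusted p = 0.02, limma), and the AMPA and NMDA receptor subunits Gria2 and Grin1 differed by -0.10 and 0.09. The glutamate count was 0 without B6 animal 12 or BALB/c animal 13 or 15, and 2 without B6 animal 14. Of 10 neurotrophin genes 2 were called (20%). Bdnf, the activity-dependent growth factor, was at 5.92, 8.94 and 9.96 TPM in B6, against 14, 14.8 and 13.8 TPM in BALB/c (0.74, SE 0.19, adjusted p = 0.0404, limma). Ntrk3, the receptor for neurotrophin-3, was higher by 0.44 (adjusted p = 0.0491, limma). The Bdnf call held in 1 of 6 fits that left out a library and the Ntrk3 call in 0.

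**Figure D3:**
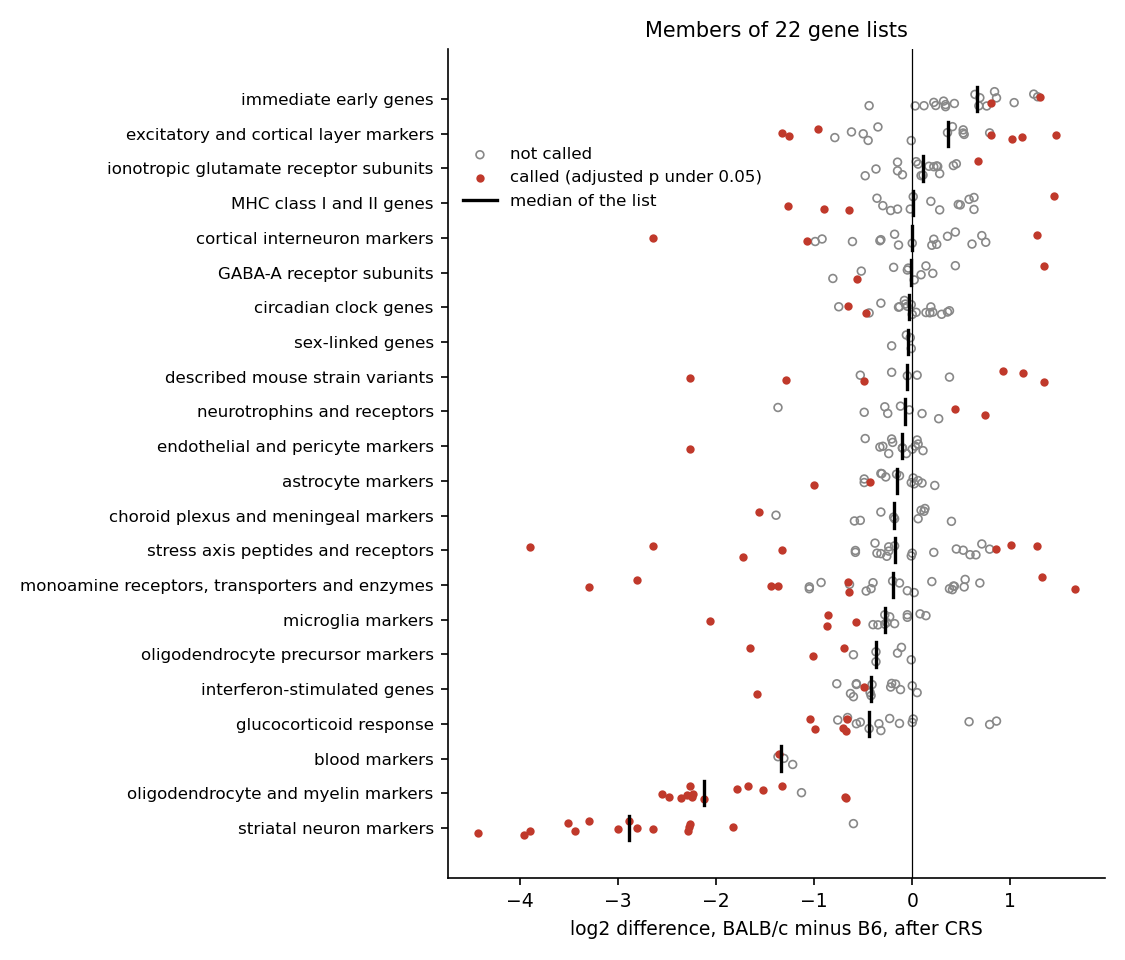
Each point is a member of 1 of 22 gene lists, ordered by list median, with its BALB/c minus B6 difference after CRS (log2) on the x axis; filled points were called at an adjusted p under 0.05, open points were not, and the bar is the list median. Medians run from -2.89 for striatal neuron markers to 0.66 for immediate early genes.

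Immediate early genes, which neurons switch on within minutes of activity, were mostly above B6 in restrained BALB/c mice, but few passed the test. Of 20 genes, 19 had a positive difference (6357 of 15530 over all genes) and 2 (10%, near the 9.92% of all genes) were called. The median difference was 0.66, against 0.00 in controls. Npas4, a transcription factor specific to neuronal activity, was at 6.67, 6.11 and 7.3 TPM in B6, against 12.3, 22.2 and 20.8 TPM in BALB/c (1.3, SE 0.22, adjusted p = 0.00713, limma). Ier2 was at 6.82, 6.59 and 8.1 TPM against 11.6, 18.6 and 10.6 TPM (0.80, SE 0.21, adjusted p = 0.0446, limma). Fos was at 11.5, 7.53 and 18.5 TPM in B6, against 15.6, 43.1 and 39.3 TPM in BALB/c; BALB/c animal 12 lay within the B6 range, and the gene was not called (1.28, SE 0.40, adjusted p = 0.0815, limma). The phosphatase gene Dusp1 stood at the threshold (0.86, adjusted p = 0.0512, limma). The count was 9 under median-of-ratios scaling, 7 without B6 animal 14, 5 without BALB/c animal 12 and 1 without B6 animal 12, B6 animal 13 or BALB/c animal 13. It was 10 with the animal number as a block, a fit that leaves only 1 residual degree of freedom. The contrast between the restrained and control strain differences had an unadjusted p under 0.05 for 2 of the 20 genes and called 0.

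Of 19 glucocorticoid-responsive genes tested, 5 were lower and 0 higher in restrained BALB/c mice, 26.3% called beside 9.92% of all genes, with a median of -0.44 (controls -0.35). Mt2, a metal-binding metallothionein, was at 523, 433 and 427 TPM in B6, against 172, 258 and 249.5 TPM in BALB/c (-1.04, SE 0.16, adjusted p = 0.00567, limma). Mt1 was at 593, 598 and 586 TPM against 299, 398 and 399 TPM (-0.71, adjusted p = 0.00961, limma). Tsc22d3, which encodes the glucocorticoid-induced leucine zipper, was at 39.9, 44.9 and 43.2 TPM against 24.1, 29.1 and 25.5 TPM (-0.68, adjusted p = 0.0106, limma). The other 2 called were Sult1a1 (-0.99), a sulfotransferase, and Map3k6 (-0.67), a kinase. The Sult1a1 call held in 6 of 6 fits that left out a library and the Map3k6 call in 0. Fkbp5 and Sgk1, other targets of the receptor, had overlapping groups (-0.53 and -0.66, adjusted p = 0.226 and 0.122, limma). Mt2 and Tsc22d3 were lower in control BALB/c mice as well (-0.95 and -0.85, adjusted p = 0.0416 and 0.0298, limma). Under median-of-ratios scaling 8 were called, 6 lower and 2 higher. Of 20 clock genes tested, Cry1 (-0.66) and Dbp (-0.47) were called lower (10%, near the 9.92% of all genes), and neither call was stable when a library was left out (Cry1 in 0 and Dbp in 1 of 6 such fits).

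Immune genes differed through single members. Of 16 interferon-stimulated genes, 15 had negative differences (9173 of 15530 over all genes) and 2 were called (12.5%, near the 9.92% of all genes). Ifit3 was at 7.2, 5.49 and 5.53 TPM in B6, against 2.02, 1.07 and 1.1 TPM in BALB/c (-1.58, adjusted p = 0.00217, limma). Ifit3 has a near-identical neighbour, Ifit3b, and the sum of both was lower too (-1.26, adjusted p = 0.00127). Ifi27 was called at -0.49, in 0 of 6 fits that left out a library. Of 17 genes of the major histocompatibility complex (MHC) and its antigen presentation, 1 was higher and 3 lower (23.5% called). B2m, the light chain shared by class I molecules, was at 110.2, 115 and 106 TPM in B6, against 71.9, 69.2 and 69.5 TPM in BALB/c (-0.65, SE 0.10, adjusted p = 0.00518, limma). H2-T22 (-1.27), H2-T23 (-0.90) and H2-Q6 (1.45) belong to a polymorphic family, and their own values are uncertain. H2-T22 is near-identical to H2-T10 and H2-Q6 to Gm43558, whereas H2-T23 was chained by sequence similarity to genes outside the family. C57BL/6 and BALB/c carry different MHC haplotypes, and whether this affects how reads match the reference was not tested.

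Of 11 genes known to vary between mouse strains, 6 were called (54.5% beside 9.92% of all genes), 3 in each direction, and 5 of the 6 were called in controls with the same sign. The list was chosen for such differences and is no independent support. Ly6a, the stem cell antigen Sca-1, was at 25.7, 31.4 and 25.4 TPM in B6, against 4.23, 4.68 and 5.88 TPM in BALB/c (-2.27, SE 0.16, adjusted p = 4.42e-05, limma). Wdfy1 (1.13), an endosomal adaptor, and Alad (0.93), an enzyme of heme synthesis, were higher beside Gabra2. Apoa2 (-1.29) and Glo1 (-0.49), a detoxifying enzyme, were lower. Nnt, of which a deletion is known in C57BL/6J, was at 7.98, 8.97 and 10 TPM in these B6 mice and at 10.3, 12.6 and 13.3 TPM in BALB/c, and was not called (0.38, adjusted p = 0.175, limma).

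Genes outside the lists included several that were close to absent in one strain. Pttg1, which encodes securin, an inhibitor of chromosome separation, was at 56.4, 52.5 and 47.5 TPM in B6, against 1.76, 0.817 and 0.0572 TPM in BALB/c (-4.93, SE 0.30, adjusted p = 1.65e-05, limma). Ccl21d, a chemokine gene of a copy-variable cluster, was at 17.2, 60.1 and 15.9 TPM in B6 and had a listed value of 0 in each of the 3 BALB/c animals. Chd9, a chromatin remodeller, was at 141, 157 and 237 TPM against 9.8, 13.6 and 12 TPM (-3.78, SE 0.20, adjusted p = 6.39e-06, limma). Serpina3n and Il33, singled out after their values were seen, are a secreted protease inhibitor and an alarmin cytokine. Serpina3n was at 10.1, 8.87 and 10.4 TPM in B6, against 29.9, 38 and 45.9 TPM in BALB/c (1.83, adjusted p = 2.72e-04, limma), and Il33 at 27.9, 37.2 and 17.5 TPM against 3.58, 3.85 and 2.47 TPM (-2.68, adjusted p = 3.75e-04, limma). Of these 5 genes, all were called in controls with the same sign. Among the 12 largest rises, Hkdc1, a hexokinase-like gene, was at 1.4, 4.24 and 0.844 TPM against 16.3, 18.6 and 9.35 TPM (2.41, adjusted p = 0.00584, limma), and Baiap2l1, an actin-binding adaptor, differed by 2.76. Snord3b1 was listed at 0 in B6 and at 15.6, 1.78 and 2.26 TPM in BALB/c, the highest value being that of animal 12, which also had the high 18S share.

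The largest rises were gene copies. Genes that RefSeq types as pseudogenes were called in 30.8% of cases (84 higher and 40 lower of 403), against 8.82% of protein-coding genes (285 higher and 877 lower of 13168). Of the 1540 called genes 189 (12.3%) had a near-identical gene in GENCODE M21, at 95% identity or more over at least 80% of the shorter transcript, against 674 of the genes not called (4.82%). Near-identical genes were chained into units, whose members need not all be near-identical to each other. In 28 units some members were called higher and others lower. The summed level was called in 6 of those 28. Of all 113 units with a called gene, the sum was called in 43.

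To show how close such pairs are, a stretch of 75 coding bases is printed for 3 genes, with the matching bases of their copies, in GRCm38 with GENCODE M21 annotation, as the 5′ to 3′ sense strand, with the bases that differ between gene and copy in capitals. Kpna2, which encodes an importin alpha that carries proteins into the nucleus, lies on the minus strand of chromosome 11, and the stretch is in exon 7 of 11 (chr11:106991258-106991332). Its copy Gm10184 has 1 exon on chromosome 17 (chr17:89909576-89909650, minus strand) and differs at 2 of 1968 aligned bases, both of which are in the stretch:
Kpna2: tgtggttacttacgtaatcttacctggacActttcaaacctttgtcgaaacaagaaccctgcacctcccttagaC
Gm10184: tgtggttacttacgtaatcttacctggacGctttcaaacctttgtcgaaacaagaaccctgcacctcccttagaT

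Psmb5, a catalytic subunit of the proteasome, lies on the minus strand of chromosome 14 (chr14:54616682-54616756, exon 2 of 3). Its copy Gm3375, a processed pseudogene with 1 exon on the plus strand of chromosome 7 (chr7:3181357-3181431), differs at 8 of 796 aligned bases, of which 2 are in the stretch:
Psmb5: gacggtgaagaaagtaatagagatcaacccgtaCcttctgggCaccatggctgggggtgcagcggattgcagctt
Gm3375: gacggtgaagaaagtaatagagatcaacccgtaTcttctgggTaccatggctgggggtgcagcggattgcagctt

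Eef1g, a subunit of the translation elongation factor 1 complex, lies on the plus strand of chromosome 19 (chr19:8972904-8972978, exon 7 of 10). Its copy Gm4366, a processed pseudogene with 1 exon on the minus strand of chromosome 7 (chr7:116825097-116825171), differs at 5 of 1342 aligned bases, of which 2 are in the stretch:
Eef1g: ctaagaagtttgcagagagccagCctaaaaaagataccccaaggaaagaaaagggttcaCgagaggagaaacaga
Gm4366: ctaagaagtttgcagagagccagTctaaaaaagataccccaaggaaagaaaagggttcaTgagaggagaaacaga

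In restrained mice each gene and its copy differed in opposite directions. Kpna2 was at 21.4, 21.9 and 26.5 TPM in B6, against 2.43, 1.92 and 4.02 TPM in BALB/c, whereas Gm10184 was listed at 0 in the 3 B6 animals and was at 24.2, 25.6 and 26.3 TPM in the BALB/c animals. Their sum was 23.3 ± 2.83 TPM in B6 and 28.2 ± 1.91 TPM in BALB/c (± SD, n = 3 per strain), and it was not called (0.27, adjusted p = 0.273, limma). Psmb5 was at 155, 157 and 202 TPM against 85.8, 101 and 88.6 TPM, and Gm3375 at 0.67, 0 and 0 TPM against 104, 112 and 109 TPM. The sum of that pair was 171 ± 26.3 TPM in B6 and 200.1 ± 12.1 TPM in BALB/c (± SD, n = 3 per strain; 0.23, adjusted p = 0.315, limma). Eef1g was at 243, 234 and 246 TPM against 163, 169 and 159 TPM, and Gm4366 at 0.527, 0.522 and 0.635 TPM against 98.3, 111 and 115 TPM. Their sum differed by 0.17 (adjusted p = 0.326, limma). In all 3 pairs the gene was called lower and the copy higher, and the sum was not called. The sequences differ by so few bases that reads covering none of them cannot be assigned to gene or copy. Each copy printed has a place in the GRCm38 reference, and whether either strain lacks it was not tested.

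The pattern was alike in the other pairs shown here, but not in every unit. The sum was called higher for Rps2 with its copies (0.97, adjusted p = 3.03e-04, limma). It was also higher for Tma7 with Tma7-ps (1.09, adjusted p = 4.08e-04) and Itpa with Itpa-ps1 (0.92, adjusted p = 0.00194, limma). Hspa8, a constitutive chaperone, was lower (-0.69) and its copy Gm15459 was at 3.66, 3.68 and 2.32 TPM in B6, against 601, 777 and 733 TPM in BALB/c; the sum differed by 0.09 (adjusted p = 0.664, limma). Rpl26, a ribosomal protein gene, was at 1055, 1105 and 1062 TPM against 319.7, 373 and 353 TPM, its copy Gm15772 at 0.712, 0 and 0 TPM against 751, 799 and 740.2 TPM, and the sum differed by 0.05 (adjusted p = 0.802, limma). Eno1, a glycolytic enolase, was lower (-1.23) while Eno1b (6.82), at 1.66, 1.57 and 1.32 TPM in B6 and 271, 303 and 278 TPM in BALB/c, and Gm4735, listed at 0 in B6 and at 285, 338 and 309 TPM in BALB/c, were higher. The sum of these 3 was 675 ± 90 TPM in B6 and 879 ± 48.5 TPM in BALB/c (± SD, n = 3 per strain) and was not called (0.39, adjusted p = 0.0659, limma). Hmga1, a chromatin protein gene, was lower (-1.64) and Hmga1b, listed at 0 in B6, was at 39.3, 42.2 and 43.8 TPM in BALB/c; their sum differed by 0.06 (adjusted p = 0.876, limma). Ahcy, the hydrolase of S-adenosylhomocysteine, was at 24.1, 22.9 and 23.2 TPM in B6, against 0.932, 0.721 and 1.69 TPM in BALB/c (-3.56), and Ahcyl, which has no entry in M21 to align, was listed at 0 in B6 and at 17.8, 24 and 24.6 TPM in BALB/c. Tpm3-rs7, AK157302, Btf3l4b, Ppihl and Amd2, also among the 12 largest rises, were at 0 to 2.06 TPM in the B6 animals and at 9.05 to 84.8 TPM in the BALB/c animals. The pairs shown were picked after their values were seen. Gm10184, Gm3375, Gm4366, Gm15772, Gm4735, Hmga1b, Ahcyl, Tpm3-rs7, AK157302, Ppihl and Amd2 passed the filter only through BALB/c, so their calls are not independent of it.

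**Figure D4:**
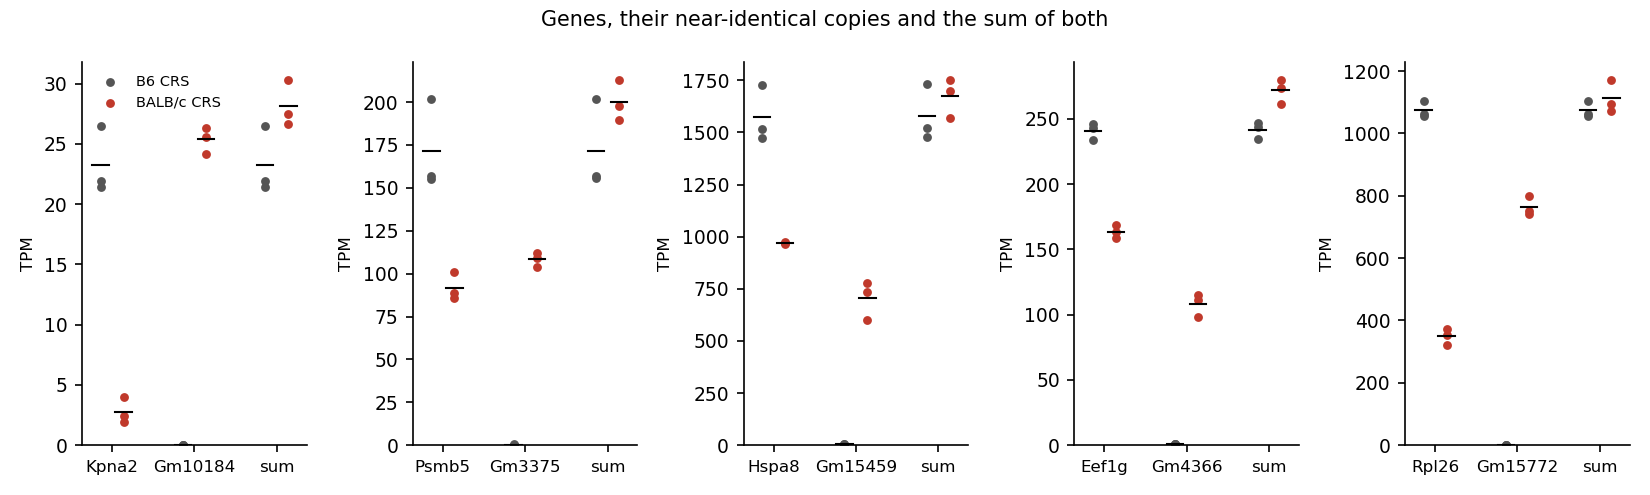
Each panel shows the TPM of a gene, of its near-identical copy and of both summed in the 3 B6 (grey) and 3 BALB/c (red) CRS libraries, with a line at the mean. In all 5 panels the copy is near 0 in B6 and above it in BALB/c, the gene is lower in BALB/c, and the sums lie close together.

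The control mice, which share no animal with the restrained ones, gave the same contrast without restraint. There 423 of the same 15530 genes (2.72%) were called. Of these, 347 were called after restraint with the same sign, 142 higher and 205 lower; that is 22.5% of the genes called after restraint and 82.0% of those called in controls. Of the 1540 genes called after restraint, 1516 (98.4%) had the same sign in controls, against 75.8% of all genes tested. Pearson's correlation of the differences across genes, which are not independent, was 0.850 over all genes tested and 0.950 over the called ones. The 347 genes became 646 without B6 control animal 9, and 222, 183, 220, 190 and 219 without B6 control 3, BALB/c control 5, 9 or 10 and BALB/c CRS animal 13, respectively.

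**Figure D5:**
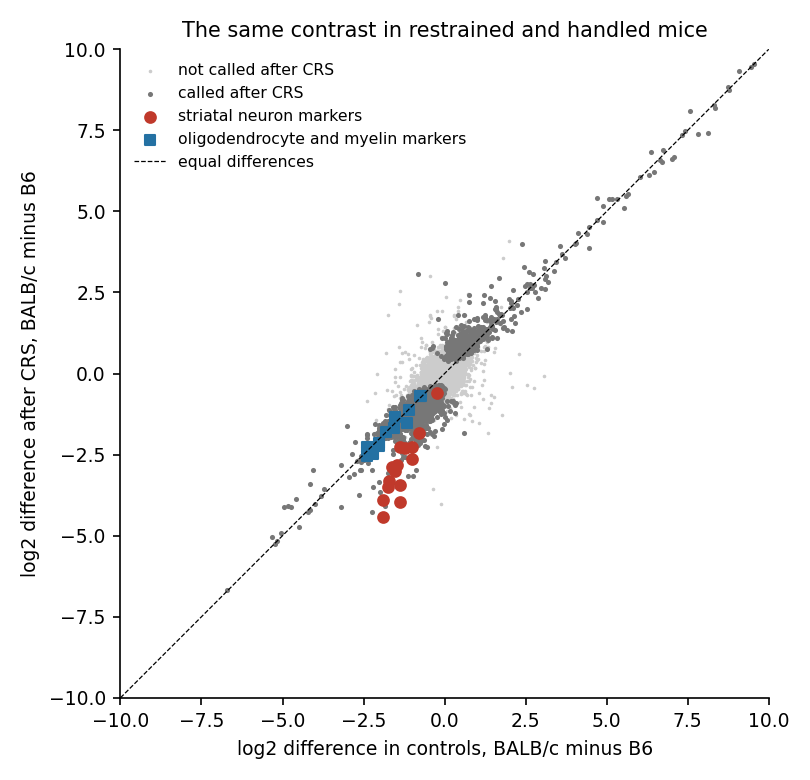
Each point is a gene with its BALB/c minus B6 difference in controls (x axis, log2) and after CRS (y axis, log2); the dashed line marks equal differences. Of the 1540 called genes 1516 have the same sign on both axes, and the striatal neuron markers lie below it, with medians of -1.38 in controls and -2.89 after CRS.

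A strain difference particular to restrained mice would appear as a difference between the 2 contrasts. In a model of all 12 libraries, 0 of 15530 genes were called for it (limma, smallest adjusted p = 0.543), and 400 genes (2.58%) had an unadjusted p under 0.05. Among the 1540 genes called after restraint 116 (7.53%) had such a p. These genes were selected on the restrained contrast, which is part of the difference tested, so that share is not independent of the selection. The genes of lowest p among them, none significant, were small or uncertain transcripts. Gm47893 was listed at 0 in all B6 and control libraries and was at 9.08, 8.31 and 2.6 TPM in the restrained BALB/c animals. Sequence similarity chained it into a unit of 7 genes that includes Glrx2, Lipo3 and Samsn1. Gm22581, a small nucleolar RNA, was listed at 0 in restrained B6 and was at 5.33, 9.97 and 7.75 TPM in restrained BALB/c. The antisense transcript Airn was at 0.391 to 0.88 TPM in B6, against 1.67 to 1.88 TPM in BALB/c (0.79 after restraint and -0.38 in controls). On the lower side were 1500035N22Rik (-0.98 after restraint, 0.33 in controls), Gm5641 (-0.91 and 0.29), which is near-identical to Hnrnpa3, and Gm16364 (-1.72 and -0.08). The filter used the restrained libraries alone. All of these genes but Gm5641 passed it only through the strain in which they were higher. So did Gpr6, Tmem212, Htr1d, H2-Q6, Apoa2, Folr1, Ccl21d, Baiap2l1 and Snord3b1, named above, and most of the gene copies. The calls of such genes are not independent of the filter.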

How the data were processed

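RNA-seq of the medial prefrontal cortex was deposited as 1 table of TPM values with a column per library. The authors' TPM values came from Salmon (version not given in the sources used here) after trimming with cutadapt 2.9, with build GRCm38, per the submitters' processing notes. The annotation and the strand setting are not given in the sources used here, so genes that overlap another on the opposite strand (among those named: Penk, Ppp1r1b, Chd9, Syndig1l, Lhfpl3, Gapdh, Mt2, Sult1a1, Bdnf, Adra1d, Slc32a1, Syt6, Dbp, Wdfy1, Glo1, Baiap2l1, H2-T22, Hmga1 and Gm15459) may share reads. The unit was read from columns that each sum to 1000000. TPM keeps no depth, so counting error is unknown, and p-values measure the spread among 3 animals per group.

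Values were summed over rows of the same gene name. Genes at 1 TPM or more in at least 3 of the 6 CRS libraries were tested with limma 3.58.1 in R 4.3.3 (lmFit and eBayes with trend, 4 residual degrees of freedom) on log2(TPM + 1), which understates changes of low genes. Calls were made where the p adjusted over all genes tested (Benjamini-Hochberg) was under 0.05. The same fit was run on the 6 controls, and the difference of the 2 contrasts on all 12 libraries. Near-identical genes were found with blastn 2.17.0 among the longest GENCODE M21 transcripts, which 14844 tested genes have, and 14353 matched a RefSeq row of GRCm38.p6. The fit was run on simulated data with independent noise for each gene. Such data lack the variation that genes share within these libraries, so the run cannot show how reliable the calls are. The members and lists were chosen with earlier results of these data known. Genes were named by rule: the 12 largest rises and falls in log2 and the 6 largest in level in each direction, among called genes that do not overlap, average 5 TPM in the higher group and are not Gm, Rik, -ps, clone or ribosomal protein names. To these were added up to 6 called members per list, and the 3 called genes in each direction with the lowest p for the difference of the contrasts. Members that define a list are given by level, and some further list members were chosen after their values were seen. Some genes that this rule names are not reported here. Lists are described by counts, with no test of the list. Alternatives covered the pseudocount, filters, scaling, the eBayes trend, a replicate block, single libraries, all 12 libraries, a myelin covariate and summed copies.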

Additional observations from a re-analysis of the deposited data

Results flagged for a closer look

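Among named genes and list members, 2 clock genes had all 3 BALB/c animals above all 3 B6 animals after CRS and all 3 below them in controls. Ciart, a repressor of the clock, differed by 0.30 (log2) after CRS and by -0.66 in controls, 0.96 apart (unadjusted p = 9.71e-05, adjusted p = 0.714, limma). Per3, a period gene, differed by 0.19 after CRS and by -0.29 in controls, 0.47 apart (unadjusted p = 0.0333, adjusted p = 1, limma). Neither passed the adjusted test of the difference.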

How the results depend on the processing

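Of the 139 genes followed through the alternatives, 116 were called after CRS. Of these, 79 were called in every fit that left out 1 library and gave them a value, and 8 in none. Among the called genes, Apoe, Bcl11b, Tyrobp, Aldoc, Glo1, Adra2c and Vcan held in only 1 of 6 such fits, as did Bdnf and Dbp. Otof, Slc32a1, Maob, Ier2, Olig2 and mt-Nd3 held in 2 of 6, Mef2c and Grik4 in 3, and Cck, Mical2 and Gfap in 4. The 1540 genes called became 876 without a filter on low values, 927 at a mean of 5 TPM or more and 116 with the myelin score as a covariate, which is itself lower in BALB/c; 114 of the 116 were among the 1540. With 1 library left out the count ran from 619 to 1373. It stayed within 1.5 times under the other alternatives, including 1490 with near-identical genes summed and 1261 with all 12 libraries, of which 1090 were shared. With the covariate, 90 of the followed genes that had been called after CRS kept their sign but lost their call. Under the same setting, uncalled genes changed sign: Foxp1 (0.27), Ugt8a (0.84), Pdgfra (0.52), Slc1a2 (0.16), Cx3cr1 (0.10) and Nr3c2 (0.07). Ugt8a is part of that score. Uncalled genes near 0 had no stable sign. Slc1a2 and Cx3cr1 were at 0.06 and 0.02 under median-of-ratios scaling, and at 0.05 and 0.01 with mitochondrial, Bc1 and rRNA genes removed. With 1 library left out Pdgfra ran from -0.24 to 0.12, Slc1a2 from -0.11 to 0.13, P2ry12 from -0.08 to 0.18, Cx3cr1 from -0.11 to 0.06, Gria2 from -0.20 to 0.04 and Grin1 from -0.04 to 0.22. The 83 list members called became 50 without a filter and ran from 50 to 85 with 1 library left out. The 347 genes called in both treatments became 210 without a filter and 203 at a mean of 5 TPM or more, and ran from 183 to 646 with 1 library left out. For the difference of the contrasts the count of 0 became 1 without a filter and 0 to 2 with 1 library left out.

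Animal numbers 12 and 13 occur in both strains after CRS. Deviations from group means of same-numbered animals correlated at -0.0371 and -0.0251, within the -0.096 to 0.104 of other pairs, so the numbers pair no samples. With a replicate block, 1879 genes were called after CRS, 110 list members, and 632 genes for the difference of the contrasts. The CRS fit and the fit of the difference each leave 1 residual degree of freedom, so their spread is poorly estimated. No paired analysis was possible for the controls because only number 9 is shared. TPM keeps no depth, so low genes have an unknown counting error.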
